A study of Mus musculus with 2 samples.

Results

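Histone genes were followed in RNA selected for its poly(A) tail, from 4T1 cells given PBS or potassium oxalate. Their members were the protein-coding genes whose GENCODE M21 symbols start with Hist1h, Hist2h, Hist3h, Hist4h, H2af, H3f3 or H1f, which gave 82 of the 21911 genes in the table. Of these, 67 were clustered, replication-dependent genes (the Hist symbols) and 15 were replacement genes (the H2af, H3f3 and H1f symbols). 4T1 is a mouse mammary carcinoma line that spreads to the lung, and the study sequenced it to look for genes that respond to oxalate. One culture was kept for 48 h with PBS and the other for 48 h with potassium oxalate, and both came from the same line. There was 1 library per condition, so no difference below has a replicate check, no test between conditions was possible, and counting intervals compare these libraries, not the conditions. The labels of the oxalate sample give 20 µM, as does the paper, whereas the treatment protocol gives 20 mM.

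Histones are the proteins around which DNA is wound, with H2A, H2B, H3 and H4 forming the core of the nucleosome and H1 binding the linker between nucleosomes. Clustered genes are transcribed in S phase, and most of their mRNAs end not in a poly(A) tail but in a short stem-loop that is bound by SLBP and cut with the help of the U7 snRNP. Replacement histones are made throughout the cell cycle, mostly from polyadenylated mRNAs, and they are loaded outside of replication. Selection with oligo(dT) therefore keeps replacement histone mRNA where it has a tail. It keeps clustered histone mRNA only where a tail or an internal run of A was captured. Values of the 2 classes thus do not measure their total mRNA.

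The stem-loop is shown for the members on which the results below turn, because it marks the 3′ end that oligo(dT) would miss. The search used a 5′ arm GGNNCT, a loop TTTN and a 3′ arm AGNNCC without gaps, on the sense strand. It covered the first 150 bases after the stop codon of the longest coding GENCODE M21 transcript. Hist1h3g does not match this loop and was found only when any bases were allowed there. The capitals mark the 16 bases of the stem-loop and the lower-case letters up to 5 bases on either side, all written 5′ to 3′ with coordinates on GRCm38.
Hist1h1c, chr13:23739507-23739532, plus strand: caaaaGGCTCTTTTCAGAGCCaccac
Hist1h2ao, chr13:21810893-21810918, plus strand: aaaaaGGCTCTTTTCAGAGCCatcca
Hist1h2ap, chr13:21833026-21833049, minus strand: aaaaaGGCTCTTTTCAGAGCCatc
Hist2h3c1, chr3:96247322-96247347, plus strand: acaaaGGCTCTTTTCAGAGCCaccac
Hist1h4i, chr13:22040961-22040986, minus strand: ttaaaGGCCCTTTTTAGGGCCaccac
Hist1h3g, chr13:23535884-23535909, plus strand: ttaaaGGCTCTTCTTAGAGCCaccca
H2afx, chr9:44335235-44335260, plus strand: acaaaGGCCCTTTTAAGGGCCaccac

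Of the 52 clustered genes with at least 30 annotated bases after the stop codon, 43 (82.7%) held the motif. With any 4 bases in the loop the number was 45 (86.5%), the other 2 being Hist1h3g, shown above, and Hist1h4a, an H4 gene. The 45 stem-loops had 8 different sequences, and 25 of them were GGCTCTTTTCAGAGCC, which lay 21 to 58 bases after the stop codon across all 45. Of the 12 replacement genes with as many bases, H2afx alone (8.3%) held the motif, and of 20550 other protein-coding genes 2 (0.01%) did. Any H2afx mRNA that ends at this stem-loop would also be missed by oligo(dT). The polyadenylation signal AATAAA in the last 50 bases showed another order, at 14 of the 52 clustered genes (26.9%), 7 of the 12 replacement genes (58.3%) and 62.2% of the others. The annotation often ran on past the stem-loop. The H2afx transcript continued for 822 bases and that of Hist1h1c for 840, whereas that of Hist1h2ap ended 3 bases on.

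Levels are FPKM, fragments per kilobase of transcript scaled by the mapped fragments of the library, so that genes of different length can be compared. Low FPKM values of genes with 1 transcript fell on steps of 1 read, which gave about 56800000 reads for PBS and 36500000 for oxalate. Differences are log2((oxalate + 1)/(PBS + 1)), where a positive value means more with oxalate, and they understate the change of genes near or below 1 FPKM. The 10267 genes that averaged 1 FPKM or more over both libraries had a median difference of 0.0031, and these are the genes compared below. Epithelial markers fitted the label, with Epcam at 125.71 FPKM with PBS and 125.33 with oxalate, and all 10 markers above 1 FPKM on average. Of 12 markers of immune, endothelial and stromal cells, summed at 10.43 and 9.66 FPKM, only Cd68 and Pdgfra reached a mean of 1, and 5 including Ptprc were listed at 0 in both libraries.

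Among genes that averaged 1 FPKM or more, the 2 classes lay at separate levels in both libraries. Of the replacement histones, 8 of 15 were at that level, and their lowest value was 26.42 FPKM. The other replacement genes were at 0.06 FPKM or less in both libraries, within the range of the clustered genes. The highest value of any clustered gene was 13.49 FPKM, and 27 of 67 had a mean of at least 1. The median clustered gene stood at 0.86 FPKM with PBS and 0.79 with oxalate. Summed, replacement histones held 1385.32 FPKM with PBS and 1330.77 with oxalate, against 97.67 and 105.95 for the clustered genes. The replacement sum was therefore 14.18 times the clustered sum with PBS and 12.56 times with oxalate. Clustered genes made up 0.0172% and 0.019% of all FPKM, and replacement genes 0.2443% and 0.2381%.

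**Figure D1:**
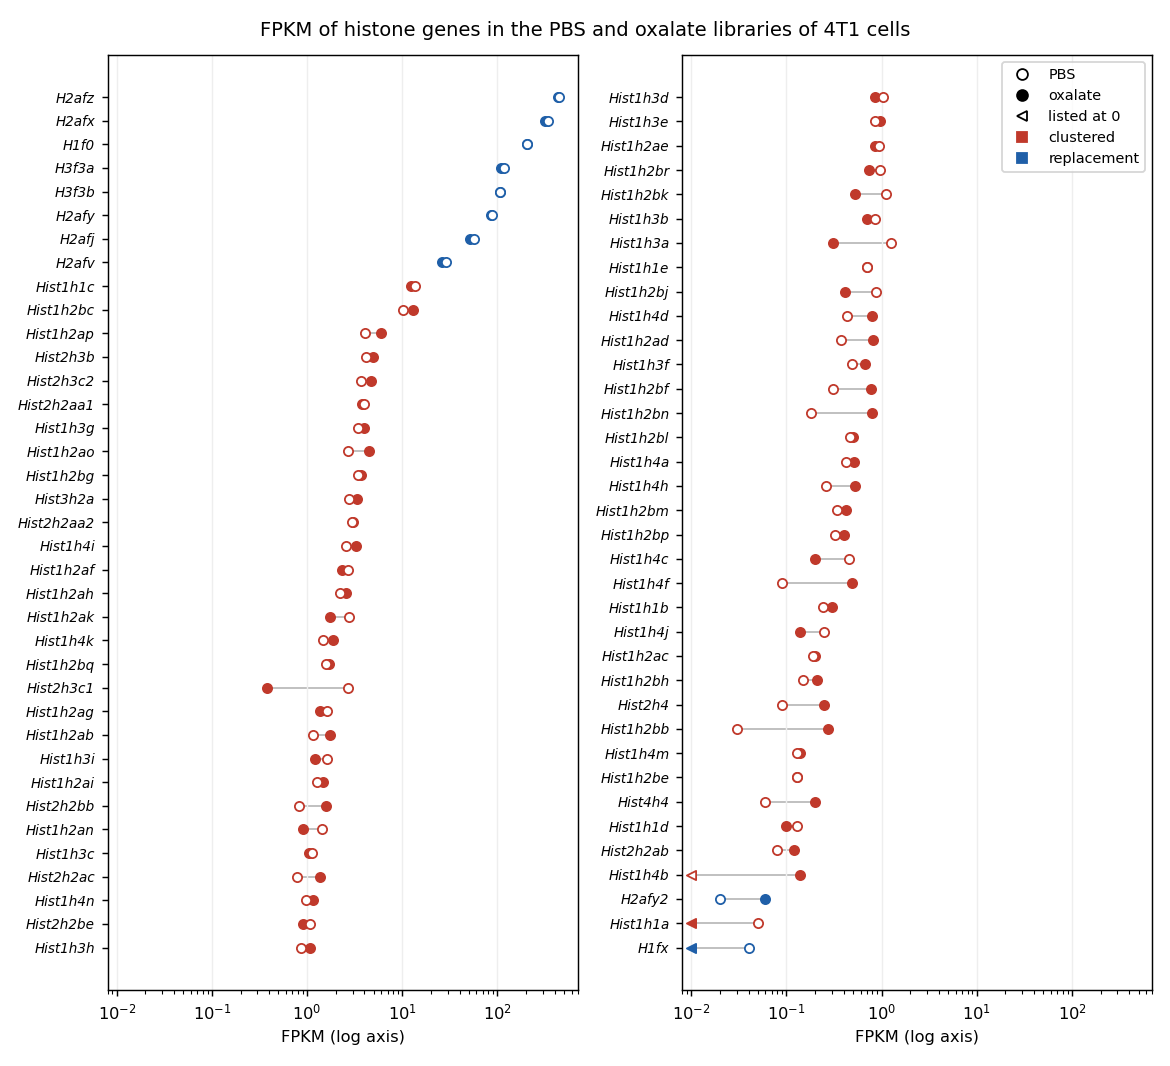
FPKM on a log axis for each histone gene above 0 in either library, with open symbols for PBS, filled symbols for oxalate and triangles for a value listed at 0 (1 library each). Replacement genes (blue) with a mean of at least 1 lie at 26.42 FPKM or above and clustered genes (red) at 13.49 FPKM or below.

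Among replacement histones, H2afz was the highest gene at 440.72 FPKM with PBS and 433.11 with oxalate. It encodes H2A.Z, a variant placed at promoters. Of the 100-base stretches of its longest coding transcript, 41.2% were unique to the gene among annotated transcripts. H2afx, whose protein is phosphorylated at DNA breaks, followed at 340.80 and 314.47 FPKM. H1f0, a linker histone known from cells that slow their division, stood at 206.05 and 205.49 FPKM. The order of these genes was the same in both libraries, and none of these values overlapped with the next gene.

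H3f3a and H3f3b encode the same protein, H3.3, which HIRA and DAXX load outside of replication. H3f3a had 117.17 FPKM with PBS and 108.74 with oxalate, and H3f3b at 107.46 and 105.89, so that the gap between the pair was smaller with oxalate. H2afy, which encodes macroH2A1, a variant of silent chromatin, stood at 87.03 and 84.79 FPKM. H2afj was at 57.18 and 51.80 FPKM, and H2afv, a near relative of H2afz, at 28.85 and 26.42. H2afy2, the macroH2A2 gene, was at 0.02 and 0.06 FPKM, and H1fx had 0.04 FPKM in the PBS library and was listed at 0 in the other. The remaining 5 replacement genes, H1fnt, H1foo, H2afb1, H2afb2 and H2afb3, were listed at 0 in both libraries.

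All 8 replacement genes with a mean of at least 1 were lower with oxalate, where 49.0% of all genes compared were lower. Their differences ran from -0.14 (H2afj) to -0.0039 (H1f0), with a median of -0.072. H2afv had -0.12, H2afx -0.12, H3f3a -0.11, H2afy -0.037, H2afz -0.025 and H3f3b -0.021. None of the 8 reached 1.2-fold in either direction, where 4.75% of all genes compared were that much higher and 5.19% that much lower. For 2 of them, H1f0 and H2afx, a single transcript made the read numbers firm. H2afx was estimated at 26795 reads with PBS and 15880 with oxalate, and its depth-adjusted log2 ratio had a 95% exact (Clopper-Pearson) interval of -0.144 to -0.088. H1f0, at 24055 and 15408 reads, had an interval of -0.033 to 0.025. These intervals, like those of single genes below, are for the log2 read ratio without a pseudocount and cover counting error only. Of the 1218 genes with 1 transcript and at least 10 reads, 23.5% had an interval below 0 and 13.4% one above 0. The replacement sum in reads had a ratio of 0.963 (0.954 to 0.973).

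Clustered genes were spread around a small positive difference. Of the 27 that averaged 1 FPKM or more, 18 were higher with oxalate and 9 lower, against 50.6% higher and 49.0% lower of all genes compared. Their median was 0.12, the range -1.41 to 0.57, and the SD across genes 0.39. The difference of medians between the classes, clustered minus replacement, was 0.19. Of the 63 clustered genes above 0 in either library, 40 were higher and 22 lower, against 49.3% and 49.5% of the 13932 such genes in the table. In bulk RNA, a different share of cells in S phase and a different amount of histone mRNA per cell cannot be told apart.

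None of the 27 was at least 1.5-fold higher, where 0.935% of all genes compared were, and 1 was at least 1.5-fold lower, where 1.05% were. That gene was Hist2h3c1, described below. At 1.2-fold, 8 were higher and 3 lower, against 4.75% and 5.19% of all genes compared, and at 2-fold 0 were higher and 1 lower, against 0.292% and 0.36%. At this depth the clustered genes rest on few reads, with a median of 28 estimated reads per gene with PBS and 21 with oxalate. Of the 52 with 1 transcript and at least 10 reads, 9 had a counting interval above 0 and 1 below 0, a set that leaves out Hist2h3c1 with its 2 transcripts. Among those with 10 to 500 reads, it was 7 above and 1 below of 49, beside 12.0% and 14.9% of the 569 genes in that range.

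**Figure D2:**
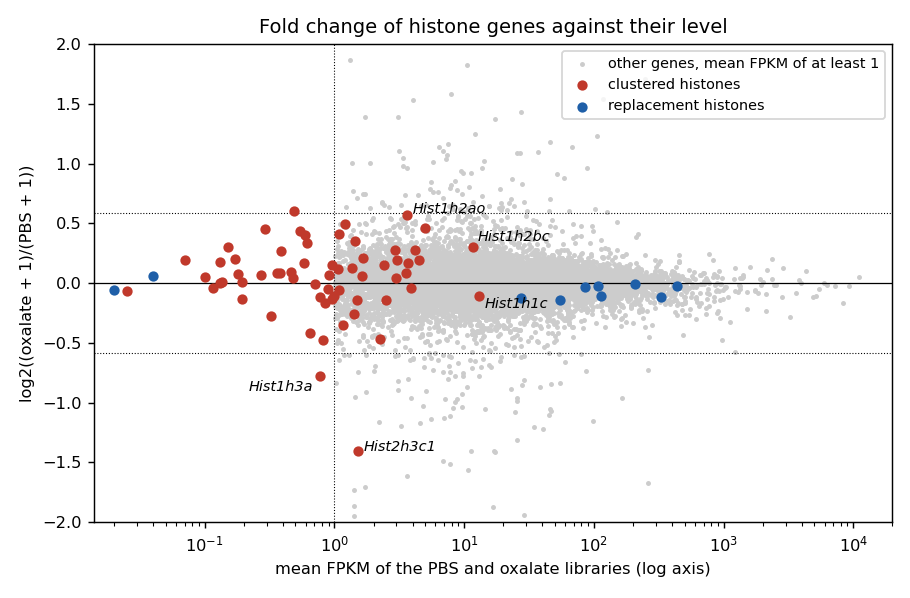
Difference between the libraries, log2((oxalate + 1)/(PBS + 1)), against mean FPKM on a log axis, for clustered (red), replacement (blue) and all other genes with a mean of at least 1 (grey, of which 6 lie beyond the axis). Dotted lines mark 1.5-fold and a mean of 1 FPKM, and Hist2h3c1 at -1.41 is the only histone above that mean past 1.5-fold.

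Among the clustered linker histones, Hist1h1c (the H1.2 gene) was the highest clustered gene, at 13.49 FPKM with PBS and 12.46 with oxalate. Its difference was -0.11, on 1196 and 709 reads, and the counting interval of -0.252 to 0.02 included 0. The other 5 linker genes of the clusters were at 0.71 FPKM or less in both libraries, with Hist1h1e at 0.71 and 0.70. Hist1h1t, the H1 of the testis, was listed at 0 in both. The 6 genes together had 1341 and 793 reads, a ratio of 0.921 (0.842 to 1.01).

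Of the 13 H2A genes in the clusters that averaged 1 FPKM or more, 8 were higher with oxalate and 5 lower, near the shares of all genes compared, and of all 18 it was 11 and 6. Hist1h2ap stood at 4.06 FPKM with PBS and 5.97 with oxalate, and Hist1h2ao at 2.72 and 4.51. Their differences of 0.46 and 0.57 were among the highest of the clustered genes, and the coding sequences of the pair are identical. Added together, they had 6.78 and 10.48 FPKM from 185 and 184 reads, a depth-adjusted ratio of 1.55 (1.26 to 1.91). Hist2h2aa1 and Hist2h2aa2, another identical pair, were level, with a sum of 6.88 FPKM with PBS and 6.85 with oxalate. Hist2h2aa1 alone stood at 3.94 and 3.79 FPKM.

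Other H2A genes went either way. Hist2h2ac had 0.78 and 1.37 FPKM (0.41), and Hist1h2ab had 1.15 and 1.74 (0.35). Their counting intervals, -0.051 to 1.691 and -0.183 to 1.364, included 0. Hist1h2ak was lower, at 2.78 and 1.74 FPKM (-0.46), and on 62 and 25 reads its interval of -1.404 to 0.02 also included 0. Hist1h2an, at 1.43 and 0.91 FPKM (-0.35), and Hist1h2af, at 2.69 and 2.34 (-0.14), were lower too, with intervals that included 0. Hist3h2a, an H2A gene outside the large cluster, had 2.77 and 3.31 FPKM. The family had 1152 and 853 reads, a ratio of 1.15 (1.05 to 1.26). Hist1h2ao and Hist1h2ap held 185 and 184 of those reads, and their part in this ratio was not tested.

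H2B was led by 1 gene. Hist1h2bc stood at 10.27 FPKM with PBS and 12.93 with oxalate, a difference of 0.31 on 674 and 545 reads, with a counting interval of 0.167 to 0.497. No stem-loop was found in the first 150 bases after its stop codon in the annotated transcript, which goes on for 742 bases. The next H2B genes were far lower, among them Hist1h2bg at 3.42 and 3.68 FPKM and Hist2h2bb at 0.83 and 1.58 (0.50). Their counting intervals, -0.315 to 0.523 and -0.038 to 1.912, included 0. The 18 H2B genes had a read ratio of 1.16 (1.06 to 1.26), which was 1.03 (0.896 to 1.18) without Hist1h2bc.

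The 12 H3 genes were split into 6 higher and 6 lower, and the 6 that averaged 1 FPKM or more into 3 and 3. Hist2h3b stood at 4.15 FPKM with PBS and 4.89 with oxalate, and Hist2h3c2 at 3.66 and 4.65. Hist1h3g was at 3.39 and 3.93 FPKM. These 3 genes were higher with oxalate by 0.19, 0.28 and 0.17. On the other side, Hist1h3i was at 1.63 and 1.2 FPKM (-0.26), and Hist1h3a, chosen after its values were seen because its interval lay below 0, at 1.25 and 0.31 FPKM on 38 and 6 reads.

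Hist2h3c1 was the exception among the H3 genes of chromosome 3, at 2.66 FPKM with PBS and 0.38 with oxalate. Its difference was -1.41, and the log2 ratio of its estimated reads, 275 and 25, was -2.82 (-3.474 to -2.228). No stretch of 100 bases in its longest coding transcript was unique to the gene among annotated transcripts. The stretches were shared with Hist2h3b, Hist2h3c2 and the noncoding Gm20634 and Gm20628, and Gm20634 lies on the same strand and spans the gene. Those noncoding genes were not analysed here. Added over the 3 copies, Hist2h3b, Hist2h3c1 and Hist2h3c2, FPKM was 10.47 with PBS and 9.92 with oxalate, with a read ratio of 0.737 (0.638 to 0.85), whereas Hist2h3b and Hist2h3c2 alone went from 7.81 to 9.54. How reads were divided among copies is not given in the sources used here, and its part in the result was not tested.

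**Figure D3:**
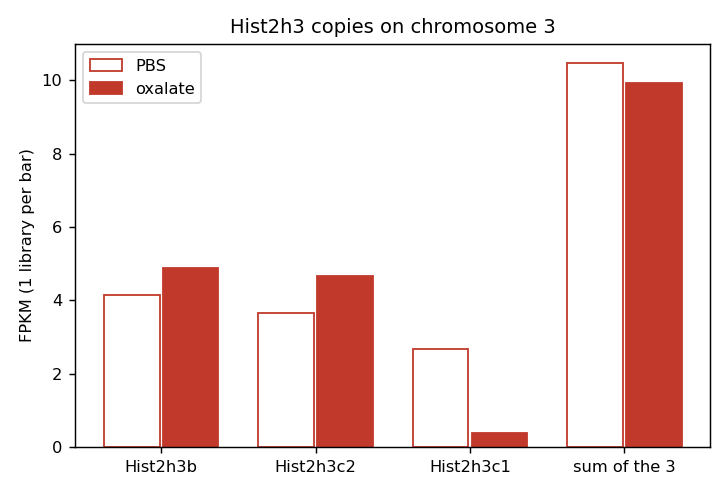
FPKM of the 3 Hist2h3 genes on chromosome 3 and their sum, with open bars for PBS and filled bars for oxalate (1 library per bar). Hist2h3b and Hist2h3c2 are higher with oxalate and Hist2h3c1 is lower, and the sum is 10.47 against 9.92.

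This 1 gene set the direction of the H3 family in reads. With it, 1020 and 540 reads gave a ratio of 0.824 (0.741 to 0.916), and without it, 745 and 515 reads gave 1.08 (0.960 to 1.21). The ratio for all clustered genes likewise went from 1.04 (0.993 to 1.08) to 1.09 (1.04 to 1.14) when it was left out. Summed FPKM, which gives a long transcript less weight, had a ratio of 1.08 with Hist2h3c1 and 1.11 without.

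H4 was the lowest core family, with sums of 7.17 FPKM for PBS and 9.67 for oxalate over 13 genes. The 3 that averaged 1 FPKM or more were higher with oxalate, where 50.6% of all genes compared were. Of all 13, 11 were higher and 2 lower, against 49.3% and 49.5% of the genes above 0 in either library. Several of these directions rest on few reads, such as 2 and 7 for the higher Hist1h4f and 11 and 4 for the lower Hist1h4j. Hist1h4i was the highest, at 2.54 and 3.28 FPKM on 105 and 87 reads, with an interval of -0.059 to 0.791. Hist1h4k stood at 1.47 and 1.85 FPKM. The family had 258 and 235 reads, a ratio of 1.42 (1.18 to 1.70), and without Hist1h4i it was 1.51 (1.19 to 1.90). Several of its genes lay below 1 FPKM, such as Hist1h4d at 0.43 and 0.80 FPKM, Hist2h4 at 0.09 and 0.25, and Hist4h4 at 0.06 and 0.20. These 3, with Hist1h2bn among the H2B genes at 0.18 and 0.79 FPKM, were named after their values were seen because their intervals lay above 0.

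**Figure D4:**
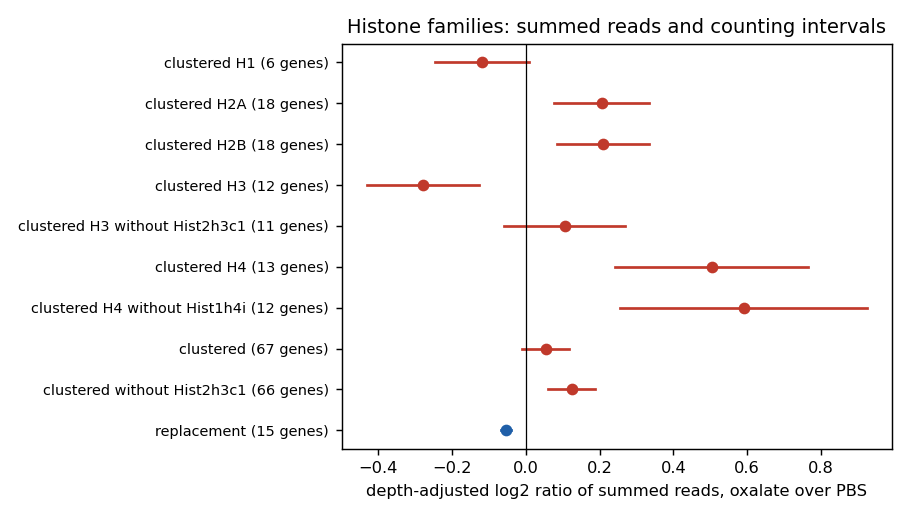
Depth-adjusted log2 ratio of summed estimated reads, oxalate over PBS, by histone family, where points are ratios and bars are exact 95% intervals that cover counting error only. H2A, H2B and H4 lie above 0, and replacement histones lie below 0. H3 lies below 0 with Hist2h3c1, and its interval includes 0 without it. Not drawn is H2B without Hist1h2bc, whose log2 interval of -0.158 to 0.235 includes 0.

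Near-identical copies and overlapping genes limit what single clustered genes can show. Of the 67, 61 shared at least 1 stretch of 100 bases with an annotated transcript of another gene, on either strand. Among these, 6 had no stretch of their own. Sharing with an overlapping gene counts too, as for Hist2h2bb, which had no unique stretch but at most 89.5% coding identity to another H2B member. A coding sequence at least 97% identical to that of another member was found for 43 of the 67. Of the same 67, 21 overlapped a gene on the other strand and 7 one on the same strand, and nothing says that the counting used strand. The 17 genes with under 25% unique stretches summed to 34.99 FPKM with PBS and 37.60 with oxalate, while their read ratio was 0.909 (0.827 to 0.999). Hist2h3c1 is among them, and without it the ratio was 1.14 (1.03 to 1.26). The 23 genes with at least 75% unique stretches, which include Hist1h1c and Hist1h4d, summed to 25 and 24.76 FPKM, and their read ratio was 0.972 (0.904 to 1.05). Hist1h1c, itself lower with oxalate, held 1196 of their 1912 reads with PBS and 709 of 1194 with oxalate. That ratio therefore leans on 1 gene, and whether shared and unique genes differ was not tested. Among identical pairs, Hist1h2bq and Hist1h2br summed to 2.52 and 2.42 FPKM, and Hist1h4m and Hist1h4n to 1.11 and 1.29.

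Clustered genes whose annotated transcript ends within 100 bases of the stem-loop were set beside those that run further. The 22 that end there, such as Hist1h2ap and Hist1h3g, summed to 28.30 FPKM with PBS and 33.43 with oxalate, a read ratio of 1.17 (1.05 to 1.30). The 23 that run over 100 bases past it, such as Hist1h1c and Hist1h4i, summed to 34.87 and 34.54 FPKM, a ratio of 0.955 (0.897 to 1.01). In the latter group lies Hist2h3c1, and without it the sums were 32.21 and 34.16 FPKM and the ratio 1.05 (0.982 to 1.11). Of the 2441 and 1640 reads then left, Hist1h1c, itself lower with oxalate, held 1196 and 709, so this ratio leans on 1 gene. The 7 genes with no match, Hist1h2bc among them, had 18.37 and 21.55 FPKM, a ratio of 1.16 (1.05 to 1.27). Hist1h2bc held 674 of their 1076 reads with PBS and 545 of 799 with oxalate. The other 15, with fewer than 30 annotated bases after the stop codon, had 16.13 and 16.43, a ratio of 1.02 (0.858 to 1.2). Whether these groups differ was not tested.

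Many H2A and H2B genes stand head to head and share the stretch between their starts. There were 12 such pairs with 176 to 306 bases between the starts, and 11 had both genes above 0. In 5 both genes differed in the same direction, and in 6 in opposite directions, counting a difference of any size on any number of reads. Hist1h2ad and Hist1h2bf, 185 bases apart, were both higher with oxalate. They stood at 0.37 and 0.81 FPKM for the first and 0.31 and 0.77 for the second. These rest on 12 and 17 reads and on 8 and 13, and both counting intervals included 0. Hist1h2ak went from 2.78 to 1.74 FPKM while its partner Hist1h2bn went from 0.18 to 0.79. In 8 pairs the H2A gene was the higher in both libraries and in 2 pairs the H2B gene, one of them Hist1h2bc, which, at 10.27 and 12.93 FPKM, stood beside Hist1h2ac at 0.19 and 0.20.

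By position, the 31 genes within chr13:23531050-23934851 held the largest sum, 44.67 FPKM with PBS and 48.33 with oxalate. The 18 genes within chr13:21715763-21837530, Hist1h2ao and Hist1h2ap among them, had 21.63 and 24.97 FPKM. The 10 genes of chromosome 3 had 20.19 and 21 FPKM, while their read ratio was 0.872 (0.786 to 0.967), with Hist2h3c1 included, and 1.14 (1.02 to 1.27) without it. The germ cell histones Hist1h1t, Hist1h2ba, Hist1h2aa, H1fnt, H1foo, H2afb1, H2afb2 and H2afb3 were all listed at 0 in both libraries, as was Hist3h2ba.

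Genes that make and remove clustered histone mRNA were followed in gene lists. Of a list of 23 genes for its transcription and 3′ end, 12 were higher and 11 lower (median 0.0017), and none reached 1.2-fold. Of all genes compared, 4.75% were that much higher and 5.19% that much lower. The list also held Coro1c, the gene of an actin-binding protein, at 224.34 and 232.36 FPKM. Cpsf2, Cpsf3, Cpsf4, Cstf2, Fip1l1 and Sympk in it belong to canonical polyadenylation too. Cpsf2 and Cstf2 were lower, and the others of these, like Coro1c, were higher. The near-even count is therefore not of histone mRNA factors alone. Slbp, which binds the stem-loop, stood at 63.26 FPKM with PBS and 56.80 with oxalate, and Npat, the activator that cyclin E and CDK2 switch on, at 11.85 and 11.68. Casp8ap2 (FLASH) was at 7.51 and 6.69 FPKM, Zfp473 at 2.47 and 2.27, and the U7 snRNP genes Lsm10 and Lsm11 at 9.37 and 8.10 and at 2.26 and 2.31. Of 9 listed genes for decay and translation, 5 were higher and 4 lower (median 0.023), with Upf1 at 34.62 and 37.58 FPKM and Eri1, the exonuclease that trims the stem-loop, at 57.54 and 54.61. At 1.2-fold, 1 of these 9 was higher and 1 lower, against 4.75% and 5.19% of all genes compared. The lower gene was Mif4gd (SLIP1), a partner of SLBP in translation, at 32.38 and 22.20 FPKM. The higher gene was Ddx19b, a helicase, at 9.11 and 11.91. Canonical polyadenylation, 13 genes, had 4 higher and 9 lower, a median of -0.058 and none past 1.2-fold.

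Of 30 histone chaperones and variant loaders, 17 were higher and 13 lower (median 0.019). Chaf1a and Chaf1b, subunits of the chaperone that works at the replication fork, stood at 45.45 and 47.51 FPKM and at 65.88 and 69.15. Asf1a went from 16.89 to 14.04 FPKM, while Asf1b had 60.66 and 60.84. Nasp, which holds soluble H3 and H4, was at 74.33 and 67.31 FPKM. For H3.3, Hira was level at 35.08 and 35.15 FPKM, and Daxx was past 1.2-fold at 13.52 and 17.62. Ep400, a remodeller that loads H2A.Z, had 26.83 and 35.13 FPKM, and Dek, a chromatin protein, 195.57 and 155.81. Cenpa, the H3 variant of the centromere, had 67.53 and 57.89 FPKM. Of 28 S phase genes, 16 were higher and 12 lower (median 0.020), with Pcna, the sliding clamp of replication, at 187.10 and 200.78 FPKM. Fen1, the flap endonuclease, was the 1 gene of that list past 1.2-fold, at 23.19 and 50.72 FPKM, and it has 4 coding transcripts.

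The GC content of transcripts moved with the differences. With genes put into 10 equal bins of GC content, the lowest bin had a median of -0.066 and the highest one of 0.028. The 27 clustered genes compared had a median GC content of 63.7% and the 8 replacement genes 50.25%, and over all 67 and 15 members it was 57.9% and 54.3%. With the median of the same GC bin subtracted, the clustered median was 0.095 and the replacement median -0.10, a difference of 0.20.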

How the data were processed

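RNA of 1 PBS and 1 potassium oxalate library of 4T1 cells was enriched with oligo(dT) beads, fragmented, reverse transcribed from random primers and read on an Illumina HiSeq2500. The authors deposited 1 FPKM value per gene and library, to 2 decimals, for 21911 genes. Bowtie2 2.2.8 and TopHat2 2.1.1 stand in the submitters' processing notes without a role, and the quantification tool, build, annotation and treatment of reads with several matches are not given in the sources used here. No library kit that marks strand is named.

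Symbols, transcripts and coordinates came from GENCODE M21 (GRCm38), which matched 21848 identifiers and left 63 without a symbol. The pseudocount was 1, the filter an average of 1 FPKM or more and the threshold 1.5-fold. Depth was the step of FPKM times length in genes with 1 transcript, in which 88 of 88 and 79 of 79 values of up to 15 reads (transcripts under 700 bases) lay within 0.2 of a whole read. Reads are FPKM times length over that step, with the mean coding transcript length where a gene has several, and are estimates. No genome was used, so the stem-loop was sought in annotated transcripts rather than genomic windows. Scripts were tested on simulated data. The scripts ran on pandas 2.3.3, numpy 2.4.6, edlib 1.3.9.post1, scipy 1.17.1 and matplotlib 3.10.9 under Python 3.11.15.

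The members and lists were chosen with earlier results of these data known. Genes named were the replacement histones averaging 1 FPKM or more, the 8 highest clustered genes, the 5 highest and 5 lowest differences among clustered genes at that level, histones past 1.5-fold, 17 fixed factors and list genes past 1.2-fold. Others, given as examples of families, copies, pairs or intervals, were chosen after their values were seen. Of a list of 20 RNAs without a poly(A) tail, and of H3f3c, Zcchc6, Zcchc11 and Spt6, no symbol matched, and they were not analysed here.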

Additional observations from a re-analysis of the deposited data

How the results depend on the processing

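With 1 library per condition, leaving out a replicate could not be done. No paired analysis was possible because PBS and oxalate stand for 1 library each, and the results come from no test. Of 81 alternative values of the medians, counts and sums, 64 kept their value within the counting error or 1.5 times the count, 17 moved and 0 changed sign. The clustered median (0.12) stayed between 0.056 (mean in place of median) and 0.31 (mean FPKM of at least 5), and the difference of medians between 0.089 (no filter) and 0.38 (mean FPKM of at least 5). At a mean of at least 5, only Hist1h1c, Hist1h2bc and Hist1h2ap were left of the clustered genes. The 0.31 is thus the value of Hist1h2bc, and the 0.38 rests on it. The replacement median moved from -0.072 to -0.021 without the filter, and to -0.021 without the filter and with a pseudocount of 0.1. Clustered genes at least 1.5-fold higher numbered 0, and 3 with a pseudocount of 0.1, 4 with 0.01, 1 without the filter, 13 without the filter and with a pseudocount of 0.1, and 8 at 1.2-fold. Those lower numbered 1, and 3 with a pseudocount of 0.1, 3 with 0.01, 2 without the filter, 0 at a mean FPKM of at least 5, 0 without Hist2h3c1, 8 without the filter and with a pseudocount of 0.1, and 3 at 1.2-fold. The clustered sum ratio of 1.08 was 1.04 in estimated reads, which weight long transcripts such as that of Hist2h3c1. The replacement ratio of 0.961 was 0.95 without H2afz and 0.975 divided by the FPKM sum of each library. Among the named members, 69 of 72 values stayed within counting error and 3 moved, all of Hist2h3c1, from -1.41 to -2.52 and -2.78 with pseudocounts of 0.1 and 0.01 and to -2.82 in reads. The settings without Hist2h3c1, without filter and with another pseudocount together, and in reads for the sums were chosen after seeing the data. The causes of the moves were not tested.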
